A study of Mus musculus with 20 samples.

Results

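The genes described here are 36 mouse peroxisome genes chosen by name, among them Abcd3, the gene of the peroxisomal ATP-binding cassette (ABC) transporter subunit also known as PMP70. The deposited table held 35 of the 36 among its 13283 genes; Abcd2 was not analysed here. The rule takes genes by symbol and uses no measured value, but the genes were picked with earlier results of these data known. Of the 35, 33 reached the minimum mean level for testing. Pex11a and Hacl1, with means of 3.19 and 1.53 on the log2 scale, lay below the minimum of 3.32 and are given as levels only.

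Peroxisomes are small organelles bounded by a single membrane that shorten very long chain and branched chain fatty acids, start the synthesis of ether lipids and break down hydrogen peroxide. Fatty acyl-CoA esters enter through ABC transporters of paired subunits, are shortened by the enzymes of beta-oxidation inside, and leave as carnitine esters or as free acids. The peroxins (Pex genes) build the organelle: some place proteins in its membrane, others carry folded enzymes from the cytosol into its matrix and recycle the receptors that bring them. Trim71, the gene altered in these cells, encodes an RNA-binding ubiquitin ligase that binds mRNAs through its NHL domain and is highly expressed in embryonic stem cells.

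The study sequenced bulk mRNA of male C57BL/6 mouse embryonic stem cells, all grown in serum with leukaemia inhibitory factor and the 2i inhibitors of the MEK and GSK3 kinases. The first of its 2 systems compared cells with a floxed Trim71 gene (genotype Trimfl/fl, named Trim71-cond, 4 libraries) with Trim71-KO cells (4 libraries). The second compared 3 unmodified WT clones (C16, C7 and C5), 3 clones homozygous for the R595H change in TRIM71 (C14, C20 and C24) and 3 heterozygous clones, R595H/+ (C15, C21 and C23). The labels give no clone for the libraries of the first system, so it may hold 1 clone of each genotype, and they do not say how the deletion was made. C16, C14 and C15 each had libraries of the dates 20/1 and 5/2, which were averaged, so that the clone is the replicate. Nothing in the labels says whether libraries of the first system came from separate cultures, and its p-values then measure only the spread between these libraries.

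Before the results, several libraries stood apart. The 2 libraries of C14 differed from each other by an SD of only 0.03 log2 over genes, against 0.13 and 0.14 for C15 and C16, and the 5/2 libraries of C24 and C14 differed by only 0.08. The mean of the Y-linked genes was 3.72 to 4.36 in C14, C20, C24, C16, C7 and C23 and 5.22 to 6.20 in the other libraries, although all cells are labelled male. Within the first system it was 5.88 to 6.20 in Trim71-cond and 5.65 to 5.80 in Trim71-KO, without overlap, and its part in the members' differences was not tested. In the first system the Trim71-cond and Trim71-KO libraries with code 1A deviated in opposite directions from their group means (r = -0.89 over genes, a description). The gene Lars2 alone held from 0.33% (C20) to 13.16% (C24) of the summed linear values of a library. Trim71 itself was at 8.93 to 9.01 in Trim71-cond and 7.43 to 7.53 in Trim71-KO, and at 9.48 to 9.54, 9.51 to 9.63 and 10.0 to 10.18 in WT, R595H/+ and R595H/R595H. All 10 embryonic stem cell markers were in the table, at a summed level of 12.94 to 13.29, while 6 of 9 primitive endoderm, 2 of 8 fibroblast and 2 of 6 neural progenitor markers were, at 3.79 to 4.07, 3.12 to 3.34 and 5.91 to 6.59; Col1a1, Col1a2, Foxa2, Sox7 and Pax6 were not among the genes analysed here.

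The promoters of 2 genes are shown because Abcd3 and Slc25a17, which encode proteins of the peroxisomal membrane, were the 2 members with the largest rises in the deletion comparison. Each window of 300 bases spans the start of the RefSeq transcript on GRCm38.p6, most of it upstream, and is printed in the direction of the gene, with matches to the GC box (GGGCGG on either strand) and the CCAAT box in capitals. The Abcd3 window, chr3:121815253-121815552 on the minus strand, holds neither.
Abcd3: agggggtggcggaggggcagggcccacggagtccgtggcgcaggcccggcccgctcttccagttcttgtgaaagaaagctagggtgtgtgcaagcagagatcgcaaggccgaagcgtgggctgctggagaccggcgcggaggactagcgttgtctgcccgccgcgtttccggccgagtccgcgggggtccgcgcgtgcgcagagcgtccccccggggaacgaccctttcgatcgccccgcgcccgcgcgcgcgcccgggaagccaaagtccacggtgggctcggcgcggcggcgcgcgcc
The Slc25a17 window, chr15:81360716-81361015 on the minus strand, holds a GC box on the opposite strand and a CCAAT box.
Slc25a17: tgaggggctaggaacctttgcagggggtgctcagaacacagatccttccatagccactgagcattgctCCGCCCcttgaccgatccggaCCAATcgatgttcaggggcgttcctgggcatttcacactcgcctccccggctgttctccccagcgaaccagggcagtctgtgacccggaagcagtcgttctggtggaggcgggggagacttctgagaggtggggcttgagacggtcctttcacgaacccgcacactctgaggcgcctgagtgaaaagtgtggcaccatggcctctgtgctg

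The Abcd3 window was 73.7% G and C with 45 CG pairs, against a median of 60.7% and 20 CG pairs over the windows of all genes in the table. The Slc25a17 window was 60.7% G and C with 15 CG pairs. RefSeq windows were matched for 30 members, 37 windows in all, including a second Abcd3 window with its start base at 121814909. A GC box was present in 27 of the 37 windows (73.0%), against 62.3% of all 13238 windows, and a CCAAT box in 14 (37.8%), against 38.1%. The E-box CACGTG, searched as printed and on the other strand, which reads the same, was present in the windows of Gnpat and Lonp2, the nuclear receptor motif AGGTCA on either strand in those of Cat, Phyh and Scp2, and the cyclic AMP response element TGACGTCA in that of Pex13; over all windows the shares were 9.89%, 12.6% and 2.93%. These matches are descriptions of the letters, not of binding.

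Because TRIM71 has been tied to the microRNA pathway, the 3' UTRs of the members were also searched for matches to bases 2 to 8 of let-7 and of the miR-290 family, the main stem cell microRNA family in mouse. The mature sequences are printed with that seed in capitals.
mmu-let-7a-5p: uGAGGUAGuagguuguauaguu
mmu-miR-294-3p: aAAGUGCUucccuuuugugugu
The let-7 match CTACCTC occurred in 2 of 35 members, Pex26 and Ehhadh. The share was 10.6% of the 9462 genes that were tested in the deletion comparison and had a 3' UTR. The 35 members include Pex11a and Hacl1, which were not tested there. The miR-294 match AGCACTT occurred in 7 of 35 (Abcd4, Pex7, Acaa1a, Agps, Far1, Crot and Acbd5), against 18.6%. The Abcd3 3' UTR held neither. The sites of Crot and Acbd5 are shown because these were the 2 members with the largest falls between R595H/R595H and R595H/+ clones (described below with their tests). Neither fall passed. The other members with the match, Abcd4, Pex7, Acaa1a, Agps and Far1, stood at 0.17, -0.14, -0.15, -0.02 and -0.03 there, and none passed. A link between match and level was not tested. The match is in capitals, at chr5:8966482-8966511 on the minus strand for Crot and chr2:23114329-23114358 on the plus strand for Acbd5, both GRCm38.
Crot: tctatttctcaAGCACTTtaatactttcta
Acbd5: tatagtttgaaAGCACTTtgcacacatttc

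Abcd3 was higher in Trim71-KO cells and in cells homozygous for R595H, and in the heterozygous clones it lay between, nearer to WT. ABCD3 forms homodimers that bring branched chain, dicarboxylic and bile acid precursor acyl-CoA esters into the peroxisome. The gene lies on the minus strand of chromosome 3 at 121758774 to 121815302 (GRCm38). In Trim71-cond its deposited log2 values were 7.59, 7.57, 7.64 and 7.65 in the libraries 1A, 3A, 2B and 3B. In Trim71-KO they were 8.38, 8.39, 8.47 and 8.21. The lowest Trim71-KO library lay above the highest Trim71-cond library. The group means were 7.61 ± 0.04 and 8.36 ± 0.11 (SD, n = 4 each), a difference of 0.75 ± 0.06 (SE) or 1.68-fold, with an adjusted p of 1.4e-07 (limma, Benjamini-Hochberg over 9580 genes) and place 5 among all genes by p. The exact two-sided permutation p was 0.0286, the smallest that 4 against 4 can give.

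Among the clones, Abcd3 stood at 7.53, 7.75 and 7.64 in WT C16, C7 and C5, and at 7.77, 7.85 and 7.78 in R595H/+ C15, C21 and C23. In R595H/R595H C14, C20 and C24 it stood at 8.53, 8.49 and 8.50, within 0.05 of each other. No clone mean of any genotype overlapped those of another, although the 20/1 library of C15 (7.70) lay below C7. The R595H/R595H clones were 0.86 ± 0.07 above WT (1.82-fold, adjusted p = 7.0e-05) and 0.70 ± 0.07 above R595H/+ (1.62-fold, adjusted p = 0.00108), and in each of these comparisons Abcd3 had the lowest p of the 9588 genes tested by limma. The R595H/+ clones were 0.16 ± 0.07 above WT (adjusted p = 0.64), which did not pass. The exact permutation p was 0.1 in all 3 comparisons, the smallest that 3 clones against 3 allow. WT, R595H/+ and R595H/R595H serve in 2 comparisons each, so these differences share samples, and both that passed rest on the same R595H/R595H clones.

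The 3 clones sequenced on both dates gave Abcd3 values of 7.64 and 7.41 (C16), 8.54 and 8.51 (C14) and 7.70 and 7.84 (C15) on 20/1 and 5/2. Between the dates C16 therefore moved by more than the SD among the WT clones, and C14 barely moved. Within the 20/1 libraries, 1 per genotype and so with no test, R595H/R595H lay 0.90 above WT and 0.84 above R595H/+, while R595H/+ lay 0.06 above WT. The C15 library titled 20/1 carries the day of the other date in a second label; the title was followed here, so the date of that library, and with it every within-date value of R595H/+, is uncertain. Within the 5/2 libraries the same differences were 0.90, 0.67 and 0.22. With C14 and C24 taken as 1 clone, R595H/R595H lay 0.86 above WT (adjusted p = 0.000145). In order of level the groups were Trim71-cond 7.61, WT 7.64, R595H/+ 7.80, Trim71-KO 8.36 and R595H/R595H 8.50, where the first 2 differed by less than their spread; the 2 systems were never compared with each other in a test of level.

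**Figure D1:**
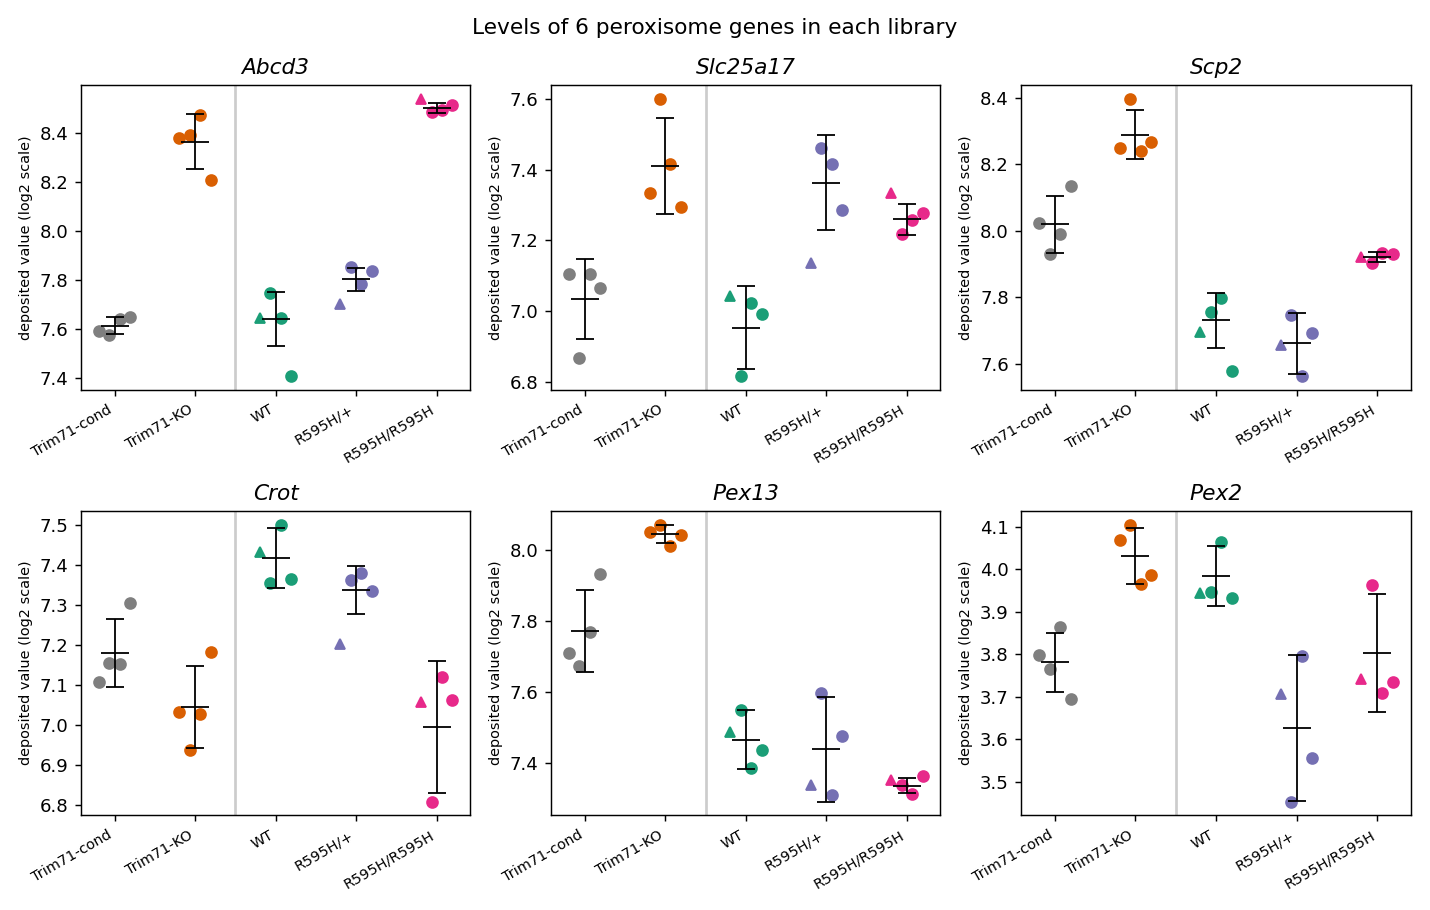
Deposited values on the log2 scale (vertical axis) of Abcd3, Slc25a17, Scp2, Crot, Pex13 and Pex2 in each library, by group; triangles are libraries of the date 20/1, and the black bars are the mean and SD over libraries (first system) or clones (second system). Abcd3 sits between 8.21 and 8.54 in the Trim71-KO and R595H/R595H libraries and between 7.41 and 7.85 in the libraries of the other 3 groups.

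The rise of Abcd3 was set beside its chromosomal neighbours, none of them a member. Of the genes around it, Alg14 was 0.13 higher in Trim71-KO and 0.11 higher in R595H/R595H, and neither difference passed. Cnn3 fell by 0.23 (adjusted p = 0.00827) and Arhgap29 fell by 0.38 (adjusted p = 0.00389) in Trim71-KO, the direction opposite to that of Abcd3 (limma). In R595H/R595H these 2 genes stood at 0.17 and -0.33 against WT, and neither passed. Gclm, Dnttip2 and Bcar3 lay between -0.12 and 0.11 in both comparisons. Tmem56, Slc44a3, F3 and Abca4 lay below the minimum level.

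**Figure D2:**
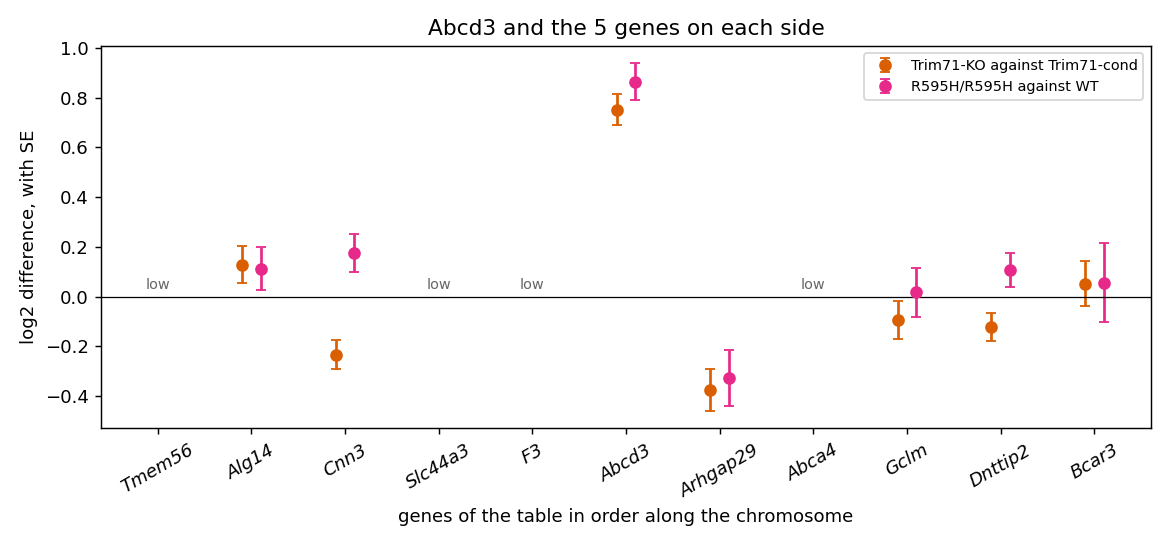
Log2 difference of Abcd3 and the genes nearest to it on either side, in gene order, for Trim71-KO against Trim71-cond and R595H/R595H against WT, with SE bars; genes below the minimum level are marked low. Abcd3 stands at 0.75 and 0.86 and the tested neighbours between -0.38 and 0.17.

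Across the deletion comparison as a whole, 9 of the 33 members tested passed, 7 higher and 2 lower in Trim71-KO. Over all genes 9.24% were called higher and 9.37% lower, so the members' share lay above that of all genes for higher calls and below it for lower calls. The members were picked with earlier results of these data known, so these shares are given as a description. The median difference over the members was -0.02 and over all genes 0.00 in size, while the median size of the difference was 0.15 for the members and 0.11 for all genes. Groups did not overlap for 10 members, 8 higher and 2 lower, against 20.8% of all genes. In bulk RNA, fewer cells of a type and less RNA per cell cannot be told apart. The summed level of the 10 embryonic stem cell markers also differed between these groups, at 12.94 to 13.06 in Trim71-cond and 13.15 to 13.26 in Trim71-KO. Of the 9 markers tested singly, 5 were called higher and 1 lower, so the markers did not move as a whole. Their part in the members' differences was not tested.

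Slc25a17, the peroxisomal membrane carrier of coenzyme A and related cofactors (PMP34), had the second largest rise. Its values were 7.10, 6.87, 7.11 and 7.07 in Trim71-cond 1A, 3A, 2B and 3B, and 7.34, 7.60, 7.42 and 7.29 in Trim71-KO. The groups did not overlap, and the pair of libraries coded 3A, the lowest control and the highest knockout, lay 0.73 apart against 0.23 to 0.31 in the other pairs. The difference was 0.38 ± 0.08 (adjusted p = 0.0021). Lonp2, a protease of the peroxisomal matrix, stood at 6.58, 6.53, 6.49 and 6.44 in Trim71-cond and at 6.76, 6.80, 6.82 and 6.61 in Trim71-KO. It was higher in every knockout library, by 0.24 ± 0.07 (adjusted p = 0.027), and with the replicate code as a block the adjusted p was 0.0595; the call was also lost without Trim71-KO 1A, 2B or 3A or Trim71-cond 2B or 3B (up to 0.0697). Acbd5, which tethers peroxisomes to the endoplasmic reticulum, was at -0.17 ± 0.09 and did not pass.

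Of the 10 enzymes grouped under beta-oxidation, a group that here also holds Crot and Pecr, 2 rose and none fell, against 9.24% and 9.37% of all genes. Decr2, the peroxisomal 2,4-dienoyl-CoA reductase that handles unsaturated fatty acids, stood at 5.48, 5.39, 5.41 and 5.74 in Trim71-cond and at 5.85, 5.96, 5.79 and 5.80 in Trim71-KO. Library 3B of Trim71-cond was the high control and came within 0.05 of its knockout partner, without overlap of the groups. Decr2 rose by 0.34 ± 0.09 (adjusted p = 0.0108). Scp2, whose longer product is the thiolase for branched chain acyl-CoA and whose shorter product is a sterol carrier, stood at 8.02, 7.93, 7.99 and 8.14 in Trim71-cond and at 8.25, 8.40, 8.24 and 8.27 in Trim71-KO. Every knockout library again lay above every control, and the difference was 0.27 ± 0.06 (adjusted p = 0.00473). The other 8 of the 10 enzymes did not pass. Among them Ehhadh, the L-bifunctional enzyme, had the lowest value at -0.24 ± 0.10 (adjusted p = 0.0912; it passed at 0.0395 without Trim71-cond 1A and at 0.0333 without both 1A libraries), Ech1, a dienoyl-CoA isomerase, was at -0.12 with groups that did not overlap, and Acox3, a branched chain acyl-CoA oxidase, was at 0.12.

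Among the peroxins of matrix protein import, 2 of 8 rose and none fell, against 9.24% and 9.37% of all genes, and 1 of the 2, Pex2, depended on the fit. Pex13, part of the docking complex in the membrane, stood at 7.71, 7.67, 7.77 and 7.93 in Trim71-cond and at 8.05, 8.07, 8.01 and 8.04 in Trim71-KO, a difference of 0.27 ± 0.06 (adjusted p = 0.00545). The knockout libraries lay within 0.06 of each other, all above the controls. Pex2, a RING ubiquitin ligase subunit that acts on the import receptor PEX5, stood at 3.80, 3.77, 3.86 and 3.70 in Trim71-cond and at 4.07, 4.10, 3.97 and 3.99 in Trim71-KO. Its difference of 0.25 ± 0.08 passed (adjusted p = 0.0298) without overlap, close to the minimum level; the adjusted p was 0.0751 with the replicate block and 0.113 without both 1A libraries, and leaving out either library of 1A or 3A, or Trim71-cond 3B, also ended the call (0.0552 to 0.0812). Pex6, Pex10 and Pex14, an ATPase of receptor export, a second RING subunit and a docking protein, were at -0.19, -0.20 and -0.21. The receptors Pex5 and Pex7 were at 0.04 and -0.08, and Pex26 was at 0.16. None of these other import peroxins passed.

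Pex19 was the member that fell most. It encodes the cytosolic chaperone and import receptor of peroxisomal membrane proteins. Its values were 6.49, 6.56, 6.65 and 6.64 in Trim71-cond 1A, 3A, 2B and 3B, and 6.35, 6.15, 6.20 and 6.24 in Trim71-KO. All knockout libraries lay below all controls, with code 1A showing the smallest step (-0.13, against -0.41 to -0.44 in the others). Pex19 fell by 0.35 ± 0.08 (adjusted p = 0.00314). Pex16 and Pex3, which work with PEX19 at the membrane, were at -0.19 and -0.01 and did not pass, and Pex11a, a division factor below the minimum level, averaged 3.20 and 3.22.

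Idh1, the NADP-dependent isocitrate dehydrogenase of the cytosol and peroxisome, was the other member that fell. It stood at 8.33, 8.46, 8.59 and 8.62 in Trim71-cond and at 8.41, 8.31, 8.19 and 8.18 in Trim71-KO. These groups overlapped, since the 1A pair went the other way (0.08) while the other pairs went down by 0.15 to 0.44 in size. Idh1 fell by 0.23 ± 0.07 (adjusted p = 0.025); leaving out any 1 of the 2B or 3B libraries raised the adjusted p to between 0.0723 and 0.0912, and eBayes without trend and robust raised it to 0.0646. The hydrogen peroxide enzymes Cat and Prdx5 were at 0.00 and 0.01 in size. The ether lipid enzymes Agps, Gnpat and Far1, which make the first intermediates of plasmalogens, lay between -0.04 and 0.09, the alpha-oxidation enzyme Phyh at -0.05 and the transporter Abcd4, which serves cobalamin in lysosomes, at -0.02, and none of them passed.

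**Figure D3:**
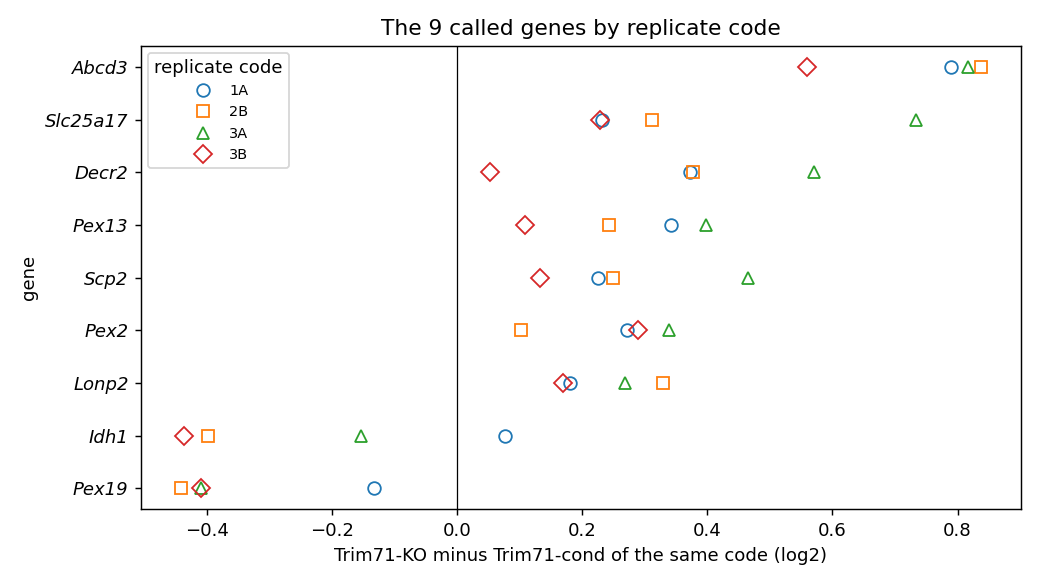
Trim71-KO minus Trim71-cond within each replicate code (1A, 2B, 3A, 3B) for the called members, on the log2 scale. Abcd3 lies between 0.56 and 0.84 in all 4 codes, and Idh1 changes side in code 1A.

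With the replicate code as a block, 7 members passed instead of 9, Lonp2 and Pex2 no longer among them. The code is not the day, since the labels give 3A and 3B the same day. With the day as the block Lonp2 and Pex2 were lost too. Without both 1A libraries 8 passed, 5 higher and 3 lower, and with the 1A pair left out and the block kept 10 passed, 5 higher and 5 lower. Ehhadh was gained as lower in both of these fits, and Pex14 and Pex16 (adjusted p = 0.0467 and 0.049) in the second. Abcd3, Decr2, Pex13, Pex19, Scp2 and Slc25a17 passed under all alternatives run for this comparison.

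Between R595H/R595H and WT clones, 2 of 33 members passed, Abcd3 higher and Crot lower. Over all genes 2.19% were called higher and 1.23% lower. Groups did not overlap for 11 members, 5 higher and 6 lower, against 29.7% of all genes. The median difference was 0.00 in the members and in all genes, and the median size 0.13 and 0.11. Crot encodes the carnitine octanoyltransferase that passes shortened acyl groups to carnitine for export. Its values were 7.40, 7.35 and 7.50 in WT C16, C7 and C5 and 7.06, 6.81 and 7.12 in R595H/R595H C14, C20 and C24. All R595H/R595H clones lay below all WT clones, with C20 the lowest. Crot fell by 0.42 ± 0.09, 1.34-fold (adjusted p = 0.023). Crot stood in between in the R595H/+ clones, at 7.27, 7.36 and 7.38, near or inside the WT range.

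Crot rested on few clones. Its adjusted p rose to 0.0734, 0.0625, 0.0599 and 0.0891 without C16, C14, C7 or C5, and to 0.0716 with the Y-linked mean as a covariate, where the difference was -0.39. With C14 and C24 taken as 1 clone it was -0.47 (adjusted p = 0.0289). In the deletion comparison Crot stood at 7.11, 7.16, 7.15 and 7.30 in Trim71-cond and 7.03, 6.94, 7.03 and 7.18 in Trim71-KO, groups that overlapped, with a difference of -0.14 ± 0.07 (adjusted p = 0.194).

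The next largest positive differences in R595H/R595H were Acox3 at 0.35 ± 0.11 (adjusted p = 0.0949) and Slc25a17 at 0.31 ± 0.09 (adjusted p = 0.0689). Neither passed; without the R595H/+ clone C21, which only shares the estimate of spread, both did, at 0.0469 and 0.048. Slc25a17 stood at 7.02, 6.82 and 7.02 in WT, 7.31, 7.22 and 7.26 in R595H/R595H and 7.21, 7.46 and 7.42 in R595H/+. All clones with the change, on 1 or both alleles, lay above all WT clones. Scp2 was at 0.19 ± 0.07 (adjusted p = 0.164), with 7.64, 7.76 and 7.80 in WT and 7.93, 7.90 and 7.93 in R595H/R595H, which did not overlap. The lowest values after Crot were Pex6 at -0.22 ± 0.08 (adjusted p = 0.161) and Phyh, the phytanoyl-CoA hydroxylase that starts alpha-oxidation, at -0.20 ± 0.10 (adjusted p = 0.287), and neither passed. Pex13 and Pex2, which rose in Trim71-KO, were at -0.13 and -0.18 here, and Pex19 at 0.00; none of the 3 passed.

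**Figure D4:**
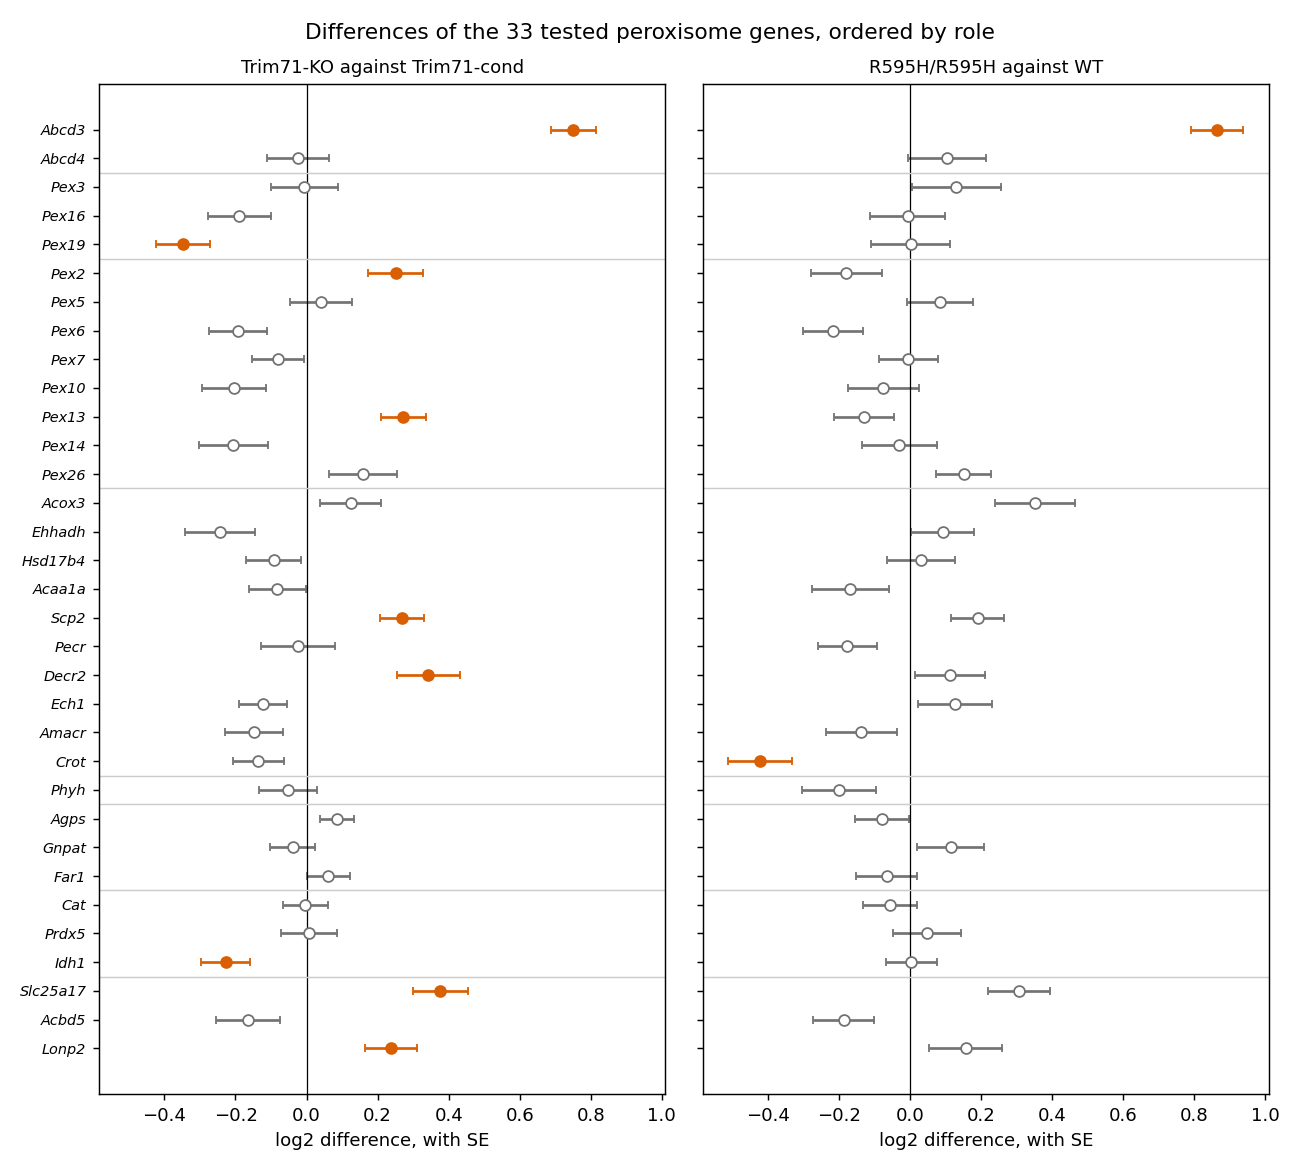
Log2 differences (horizontal axis) of the 33 tested members with SE bars, ordered by role, for Trim71-KO against Trim71-cond on the left and R595H/R595H against WT on the right; filled points passed the test. Abcd3 is the only member filled on both sides, at 0.75 and 0.86.

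Between R595H/+ and WT clones no member passed, and neither did any other gene (0% of 9588 by limma). Among the 33 members 5 had an unadjusted p under 0.05, against 736 of all genes (7.68%), and groups did not overlap for 5, against 12.5%. Slc25a17 was the highest member at 0.41 ± 0.09, the fifth lowest p of all genes, yet its adjusted p was 0.393. Hsd17b4, the D-bifunctional enzyme, was at 0.22 ± 0.10 (adjusted p = 0.64). On the low side Pex2 was at -0.36 ± 0.10 (adjusted p = 0.499), with 3.63, 3.45 and 3.80 in R595H/+ C15, C21 and C23 against 3.94, 3.95 and 4.06 in WT C16, C7 and C5. Pecr, a peroxisomal enoyl-CoA reductase, and Phyh were both at -0.21 (adjusted p = 0.585 and 0.698).

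Between R595H/R595H and R595H/+ clones, Abcd3 was the single member that passed, where 0.574% of all genes were called higher. Scp2 was at 0.26 ± 0.08 (adjusted p = 0.0978), with 7.67, 7.75 and 7.56 in R595H/+. Acox3 followed at 0.23 ± 0.11 (adjusted p = 0.297). Crot was at -0.34 ± 0.09 (adjusted p = 0.0734), Acbd5 at -0.27 ± 0.09 (adjusted p = 0.12) and Hsd17b4 at -0.18 ± 0.10 (adjusted p = 0.315). None of these 5 passed. Slc25a17 was at -0.10, with a 95% interval of -0.29 to 0.08, so that on this scale a difference as large as that of Abcd3 lay outside its interval.

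**Figure D5:**
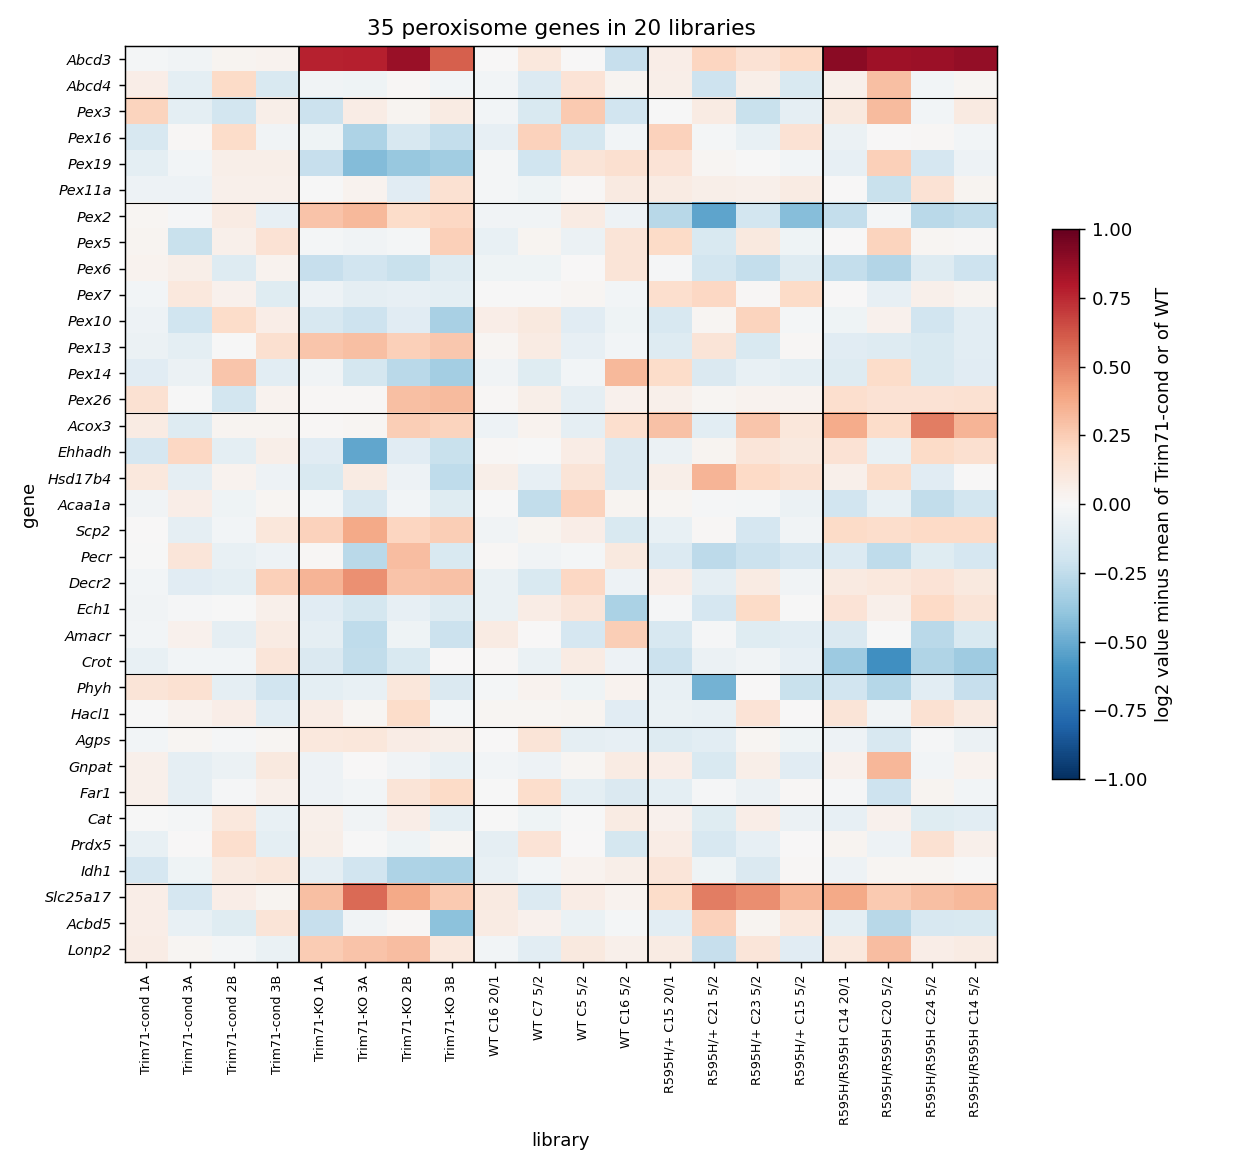
Deposited log2 values of the 35 members in each of the 20 libraries, as differences from the mean of Trim71-cond (first system) or of WT (second system), ordered by role; red is higher and blue lower. The Abcd3 line reads 0.596 to 0.901 in the Trim71-KO and R595H/R595H libraries.

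The deletion and the homozygous change were compared directly in a single limma model of 17 values. The difference of the homozygous clones from WT was subtracted from that of the knockout. Each effect came from its own system, so a difference between the alterations cannot be told apart from a difference between the systems. The spread in that model pools libraries that may come from 1 clone with clone means. Over all genes 1.42% differed in either direction, and 1 of 33 members did, Pex13. The Pex13 difference between the effects was 0.40 ± 0.11 (adjusted p = 0.0498): it was 0.27 higher in Trim71-KO, while R595H/R595H clones stood at 7.36, 7.34 and 7.32 against 7.46, 7.55 and 7.39 in WT. The call sat at the threshold, and with the replicate block its adjusted p was 0.0871. Leaving out any 1 library or clone other than Trim71-cond 3B, R595H/+ C21 or R595H/+ C23 ended it, with adjusted p-values up to 0.15 (without C7). Pex2 had a larger difference, 0.43 ± 0.12, that did not pass (adjusted p = 0.0706). It did pass without R595H/R595H C20 and without R595H/+ C21 (lowest adjusted p = 0.0381). Crot was at 0.29 ± 0.11 (adjusted p = 0.18). On the other side Pex19 was at -0.35 ± 0.13 (adjusted p = 0.156), Ehhadh at -0.33 ± 0.14 (adjusted p = 0.21) and Ech1 at -0.25 ± 0.12 (adjusted p = 0.281). For Abcd3 the effects differed by -0.11 ± 0.10, with a 95% interval of -0.31 to 0.09 and an adjusted p of 0.582; a Trim71-KO effect smaller by up to 0.31 is inside that interval.

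Across the 17 values, the genes whose pattern was most like that of Abcd3 by Pearson correlation, with each system centred on its own mean, were Tet2 (r = 0.95), Arid5b (0.95), Oxct1 (0.94), Ntn1 (0.94) and Plxnb2 (0.94). Among the members Scp2 was the closest, at r = 0.86 and place 60 of 9584 genes, followed by Lonp2 (0.68), Decr2 (0.66), Slc25a17 (0.64) and Acox3 (0.62). Pex6 (-0.79) and Crot (-0.78) ran most against it. These values share their libraries and groups and are given as a description.

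Other genes of the same and neighbouring pathways were counted beside the members. Of 41 further peroxisome genes tested, 4 rose and 6 fell in Trim71-KO, with a median of 0.02. Over all genes 9.24% were called higher and 9.37% lower in this comparison, the shares to set beside each list of this paragraph. The acyl-CoA synthetase Acsl6 rose by 0.37 ± 0.08 (adjusted p = 0.00485). Nudt19, a coenzyme A hydrolase, fell by 0.40 ± 0.09, Acsl4 fell by 0.33 ± 0.09, Dhrs4 fell by 0.28 ± 0.07 and Idh2, the mainly mitochondrial relative of Idh1, fell by 0.23 ± 0.06. Of 22 mitochondrial fatty acid oxidation genes 1 rose and 1 fell: Acad10 rose by 0.30 and the thiolase Acaa2 fell by 0.49 ± 0.09 (adjusted p = 0.00111).

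Of 14 tested partners and targets of the PPAR family, nuclear receptors that drive fatty acid oxidation genes, 2 rose and 2 fell in Trim71-KO. Fabp5 rose by 0.37 and the partner receptor Rxra by 0.23, while Acot1 fell by 0.31 and the partner receptor Rxrb by 0.28. No PPAR gene itself was tested: Ppard lay below the minimum level, and Ppara and Pparg were not among the genes analysed here. Over all genes 9.24% were called higher and 9.37% lower in Trim71-KO, the shares to set beside each list of this paragraph. Of 18 genes of very long chain and ether lipid synthesis outside the peroxisome, 2 rose (Selenoi by 0.31 and Elovl5 by 0.21) and 2 fell (the desaturases Fads1, which fell by 0.38, and Scd2, which fell by 0.19). Among 20 lysosome membrane and hydrolase genes, taken as a second organelle, 4 rose and none fell, among them Lamp2 by 0.37 ± 0.06 (adjusted p = 0.000382), Gaa by 0.29 and Lamp1 by 0.21. In R595H/R595H against WT, 2.19% of all genes were called higher and 1.23% lower. Fis1 (0.33 ± 0.08, adjusted p = 0.0409), a division factor of peroxisomes and mitochondria, was the only call there among the further peroxisome genes. Rxra (0.37), the mitochondrial acyl-CoA dehydrogenase Acad9 (0.42), Lamp1 (0.41), Hexa (0.35) and Gaa (0.40) also rose there. None of these lists had a call between R595H/+ and WT or between R595H/R595H and R595H/+. In the direct comparison of the effects Fads1 was at -0.50 ± 0.11 (adjusted p = 0.0162) and Hexa at -0.45 ± 0.10 (adjusted p = 0.0222). Among the genes of these lists named here Nudt19, Acsl6, Idh2, Dhrs4, Acaa2, Fads1, Selenoi and Lamp2 passed in Trim71-KO under all alternatives run; the others named, and all those named for R595H/R595H and for the direct comparison, were lost under at least 1.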

How the data were processed

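Bulk mRNA was sequenced from 20 libraries, prepared with TRIZOL extraction and the TruSeq RNA v2 kit and run paired-end on a HiSeq1500, per the labels' protocols. CASAVA 1.8, STAR and DESeq2 are listed in the submitters' processing notes. For the build, the annotation, the counting and the transformation, the sources used here give nothing. The authors deposited 1 table of 13283 genes whose values are on a log2 scale (-0.65 to 17.96, 1.58% below 0); base and scale were read from the values. Depth is unknown, so no counting interval can be given, and a log2 difference understates the change of low genes if the transformation shrinks them.

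limma 3.58.1 in R 4.3.3 (lmFit, eBayes with trend and robust) was fitted to all genes whose mean over the libraries of the fit was at least 3.32, that is log2 of 10. The first fit held 8 libraries, the second 9 clone values, and a joint fit of 17 values tested the difference of effects. Benjamini-Hochberg adjustment ran over all genes tested, with a threshold of 0.05. Abcd3 was also tested with exact two-sided permutations. The scripts were tested on simulated data. The members and lists were chosen with earlier results of these data known. Named were the called members and the 3 largest rises and 3 largest falls of each comparison, the called genes of the further lists (except some not reported here), the genes next to Abcd3 and the 5 genes most like it; other members appear by role. Codes pair the libraries of the first system in the labels, where 3A and 3B share a day. Deviations of same-coded libraries, however, correlated at -0.89 (1A), -0.12 (3A), -0.09 (2B) and 0.13 (3B). 3' UTRs and gene positions came from GENCODE on GRCm38, and promoters and microRNAs from RefSeq. Alternatives changed the scaling, filter, eBayes settings, covariates and blocks, or left out libraries or clones.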

Additional observations from a re-analysis of the deposited data

Results flagged for a closer look

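In the 4 libraries of a group, 4 of 72 groups (35 members and Trim71, in Trim71-cond and Trim71-KO) had a library so far from its nearest neighbour, relative to the group's range, that it passed Dixon's 95% critical value, and chance gives about 1 in 20. Pex5 was high in Trim71-KO 3B at 6.68. Pex6 was low in Trim71-cond 2B at 4.66, and Pex14 was high in the same library at 4.36. Slc25a17 was low in Trim71-cond 3A at 6.87, the library that gives the largest step of that gene between paired libraries. Pex13 differed between the deletion effect and the homozygous effect by 0.40 on the log2 scale in the test of that difference. That test crossed the systems, so alteration and system cannot be told apart in it.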

How the results depend on the processing

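In the deletion comparison 9 members passed; leaving out 1 library gave 6 to 9, and the replicate block gave 7. In R595H/R595H against WT, 2 passed, with 1 under the Y-linked covariate and 1 to 4 when a clone was left out (1 without C16, C14, C7 or C5, and 4 without R595H/+ C21). R595H/+ against WT stayed at 0 and R595H/R595H against R595H/+ at 1 under every alternative run. For the difference of effects 1 passed, with 0 under quantile normalization, equal totals, no filter, eBayes without trend and robust, the replicate block, without both 1A libraries, and with C14 and C24 as 1 clone, and 0 to 2 when a library or clone was left out. The Abcd3 difference ranged with a library or clone left out from 0.71 to 0.80, 0.81 to 0.92, 0.11 to 0.22 and 0.68 to 0.73 in the 4 comparisons, and its replicate block value in the deletion comparison was 0.75. No member reversed direction after passing. With all libraries kept, the block changed no member's call beyond those named beside the results; with the 1A pair left out it added Pex14 and Pex16. The causes were not tested. Depth is unknown, so what it limits cannot be stated, and 3 clones a genotype limit the precision of all clonal values.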
